A study of Mus musculus with 14 samples.

Results

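The report concerns 31 mouse genes of fatty acid oxidation and ketone body metabolism, out of 21853 protein-coding genes measured by RNA sequencing in 2 reproductive organs, ovary and uterus. The genes were listed by their function in these pathways, and their symbols were matched to the Ensembl identifiers of the deposited expression values. All 31 were found. The mice were C57BL/6J females, 28 weeks old, and 2 groups of aged mice were compared in each organ. OT mice had received AMSC-CM, the medium conditioned by human amniotic membrane-derived mesenchymal stem cells pooled from 3 donors, by intravenous injection into the tail, 1 µL for each g of body weight, 6 times with 4 days between. OC mice had received saline. Both groups had also been given PMSG and, 48 h later, hCG, at 10 IU each, so the controls carry the gonadotropin treatment too. There were 3 OC and 4 OT mice, each giving an ovary library and a uterus library, 14 libraries in all. The values are FPKM, a read-fragment count divided by transcript length and by the mapped fragments of the library, so levels of different genes are compared per length.

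Fatty acids are burned in mitochondria after a carnitine shuttle has carried their acyl groups across the inner membrane. Each round of beta-oxidation then runs through an acyl-CoA dehydrogenase, a hydratase, a hydroxyacyl-CoA dehydrogenase and a thiolase, and the electrons released by the dehydrogenases pass through the electron transfer flavoprotein. Peroxisomes hold a related set of enzymes for very long and unusual chains, and ketone bodies carry the acetyl units from liver to other tissues. In tissues with high oxidation, such as heart, brown adipose tissue and liver, many of these genes are switched on together by the nuclear receptors of the PPAR family.

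As background, promoter sequences of the members were read from the RefSeq table of 300-base windows (build GRCm38.p6, 250 bases before and 50 bases after the start, written 5′ to 3′ on the gene's strand). A window was found for 26 of the 31 members, 27 windows in all. The letters AGGTCANAGGTCA, the direct repeat that PPAR and RXR pairs are known to bind, were searched on both strands with up to 2 mismatches in the 12 fixed letters. They were matched in 3 of the 27 member windows (11.1%) and in 3.86% of all 32851 windows. The 3 are shown because they are the only members with a match, which stands in capitals: Slc25a20 (chr9:108661886-108662185, plus strand), the carnitine-acylcarnitine carrier; Echs1 (chr7:140116372-140116671, minus strand), the short-chain hydratase; and Etfa (chr9:55512194-55512493, minus strand), a subunit of the electron transfer flavoprotein.
Slc25a20: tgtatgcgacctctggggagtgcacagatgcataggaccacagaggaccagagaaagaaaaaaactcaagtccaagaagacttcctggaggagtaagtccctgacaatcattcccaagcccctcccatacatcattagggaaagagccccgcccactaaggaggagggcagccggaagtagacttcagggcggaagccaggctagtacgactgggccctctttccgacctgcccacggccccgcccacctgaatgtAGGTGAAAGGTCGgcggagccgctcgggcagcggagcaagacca
Echs1: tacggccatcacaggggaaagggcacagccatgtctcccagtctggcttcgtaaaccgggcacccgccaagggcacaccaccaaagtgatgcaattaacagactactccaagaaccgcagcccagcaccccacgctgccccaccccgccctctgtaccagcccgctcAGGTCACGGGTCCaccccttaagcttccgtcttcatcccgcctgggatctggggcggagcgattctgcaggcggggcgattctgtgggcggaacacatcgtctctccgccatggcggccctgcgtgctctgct
Etfa: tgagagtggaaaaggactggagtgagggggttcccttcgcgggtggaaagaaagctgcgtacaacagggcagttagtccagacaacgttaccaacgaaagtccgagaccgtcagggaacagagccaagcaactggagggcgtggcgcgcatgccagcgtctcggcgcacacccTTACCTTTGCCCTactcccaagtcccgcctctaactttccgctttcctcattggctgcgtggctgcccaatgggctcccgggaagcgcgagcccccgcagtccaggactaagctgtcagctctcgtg

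The second motif, the GC box GGGCGG (either strand), was held by 20 of the 27 member windows (74.1%) and by 35.7% of all windows, and the median GC content was 60.7% in member windows against 52.7% in all. Hadha and Hadhb, the α and β subunits of the mitochondrial trifunctional protein, lie head to head on chromosome 5, and their windows (chr5:30154931-30155230 on the minus strand and chr5:30155003-30155302 on the plus strand) share 228 bases. They are shown with the GC boxes in capitals, together with the window of Acaa1b (chr9:119157044-119157343, minus strand), the member with the largest difference between groups, which holds neither motif and has a GC content of 43.7%. A match is only a match of letters, and no binding was measured.
Hadha: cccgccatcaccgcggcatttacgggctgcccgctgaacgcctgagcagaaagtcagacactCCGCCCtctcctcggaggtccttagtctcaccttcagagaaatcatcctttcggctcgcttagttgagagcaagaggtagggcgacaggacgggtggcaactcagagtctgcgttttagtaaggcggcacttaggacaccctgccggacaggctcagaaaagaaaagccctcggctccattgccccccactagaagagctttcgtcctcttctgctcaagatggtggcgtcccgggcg
Hadhb: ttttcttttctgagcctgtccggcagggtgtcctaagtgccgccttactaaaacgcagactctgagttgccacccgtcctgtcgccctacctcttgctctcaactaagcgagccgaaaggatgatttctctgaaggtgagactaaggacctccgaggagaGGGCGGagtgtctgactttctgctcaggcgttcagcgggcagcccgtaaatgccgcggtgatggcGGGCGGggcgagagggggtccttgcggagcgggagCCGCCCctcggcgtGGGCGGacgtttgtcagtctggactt
Acaa1b: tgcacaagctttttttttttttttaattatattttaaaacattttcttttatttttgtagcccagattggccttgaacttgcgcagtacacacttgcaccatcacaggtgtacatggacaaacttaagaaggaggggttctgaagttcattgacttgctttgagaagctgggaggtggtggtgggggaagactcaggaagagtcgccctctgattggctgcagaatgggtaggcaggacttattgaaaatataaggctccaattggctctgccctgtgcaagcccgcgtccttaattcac

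Before the comparisons, the libraries were checked against their labels. Luteal markers summed to between 5666 and 7124 FPKM in the ovaries and to at most 53.9 FPKM in the uteruses, and smooth muscle markers to at least 7947 FPKM in the uteruses. Some libraries stood apart. In the OT1 uterus, Ucp1, the uncoupling protein that defines brown fat, was at 209.9 FPKM, against 0.1116 FPKM in OT3 and 0 in the other 12 libraries. The named uterus values and counts are therefore also given without OT1. In the ovary, white adipocyte markers summed to 2972 FPKM in OT1 and 2121 FPKM in OT2, against 338.2 to 794.1 FPKM in the other 5 ovaries, and Hoxa10, a homeobox gene of the uterus, was at 53.39 FPKM in OC2 and 48.91 FPKM in OT3, against 0.5722 FPKM in OT1 and at most 27.72 FPKM in the others. Depth cannot be read from FPKM, and the precision of low values is therefore unknown.

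In saline-treated mice the levels of the members spanned a wide range, as the plot of OC levels shows. In the ovary, Acaa2, the mitochondrial thiolase, was highest at 97.79 ± 1.449 FPKM (SD, n = 3). Cpt1a, the carnitine palmitoyltransferase that admits acyl groups to the shuttle, followed at 77.45 ± 4.32 FPKM (SD, n = 3), and then Echs1 and Hadh at 71.5 ± 2.349 and 70.8 ± 2.614 FPKM (SD, n = 3), which differed by less than their spread. At the low end stood Acaa1b, a peroxisomal thiolase, at 0.3382 ± 0.2161 FPKM, and Cpt1b, the muscle form of the first carnitine palmitoyltransferase, at 1.083 ± 0.3971 FPKM (SD, n = 3). In the OC uterus, Etfb and Acaa2 were highest at 49.67 ± 4.328 and 45.27 ± 2.393 FPKM (SD, n = 3), and Acaa1b was again lowest at 0.1341 ± 0.0427 FPKM. Summed over the 31 genes, the OC uteruses held between 701.3 and 704.3 FPKM, and the OC ovaries between 985.6 and 1039 FPKM.

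**Figure D1:**
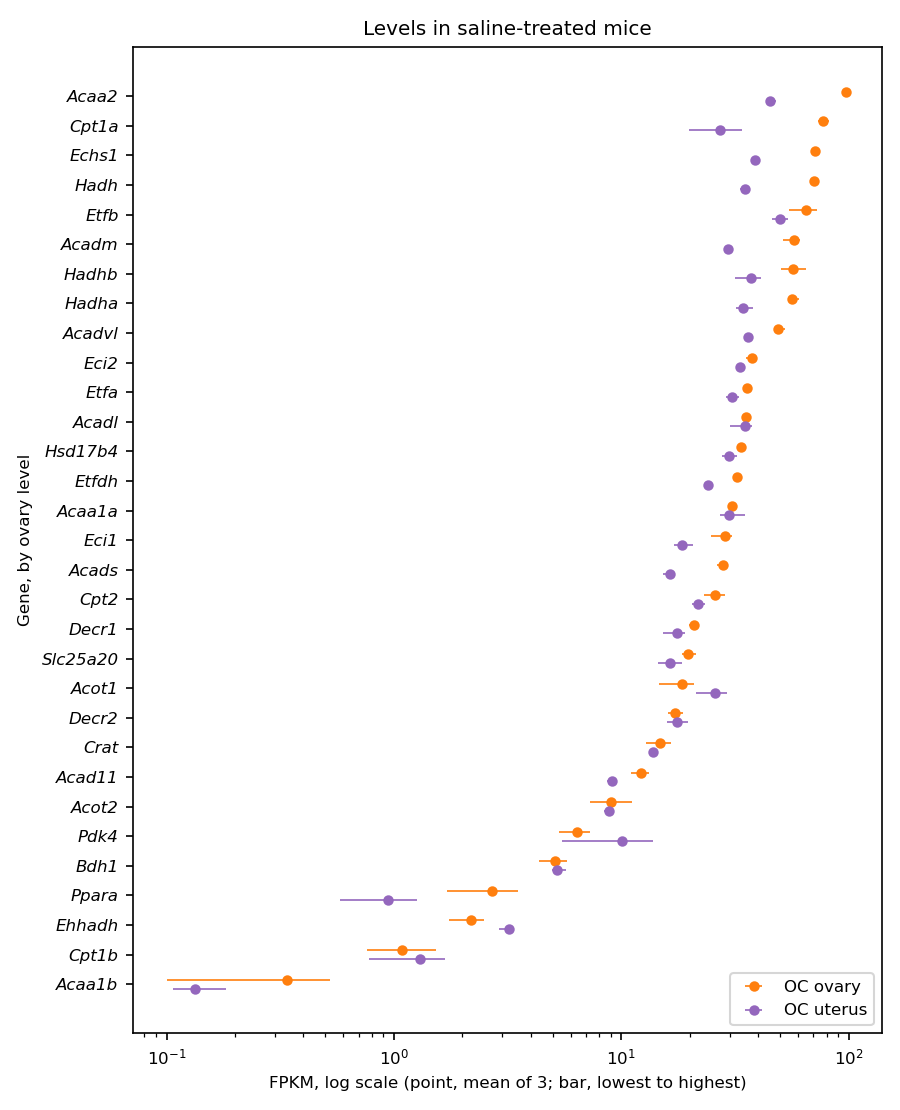
FPKM of each of the 31 genes in the ovary and uterus of OC mice, on a log scale, with the mean of 3 libraries as a point and a bar from the lowest to the highest library, ordered by ovary level. Acaa2 at 97.79 FPKM and Cpt1a at 77.45 FPKM lead the ovary, and Acaa1b is lowest in both organs.

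Between the organs of OC mice, 5 members had lower expression in the uterus than in the ovary and none had higher at an adjusted p under 0.05, against 18.8% lower and 17.2% higher over the 14557 genes tested (limma, 14 libraries, Benjamini-Hochberg). Cpt1a differed most. Its level was 82, 73.41 and 76.92 FPKM in the OC1 to OC3 ovaries and 19.79, 27.66 and 34.01 FPKM in the uteruses of the same mice, a log2 difference of -1.54 (SE 0.268, adjusted p = 0.000664 by limma). Every OC uterus lay below every OC ovary. Acaa2 was lower by -1.11 on the log2 scale (SE 0.279, adjusted p = 0.00761, limma), and Hadh, the short-chain hydroxyacyl-CoA dehydrogenase, by -1.01 (SE 0.345, adjusted p = 0.0354, limma). The other 2 were Echs1 (-0.88) and Hadha (-0.71). In OT mice 6 members were called between the organs, against 40.6% of all genes. Cpt1a (-1.77, adjusted p = 4.98e-05 by limma) and Acaa2 (-0.77) were again lower in the uterus. Pdk4, the kinase that shuts off pyruvate dehydrogenase when fat is burned, was higher there (1.73, SE 0.447, adjusted p = 0.00763 by limma), as were Ehhadh, the peroxisomal bifunctional enzyme (1.03, adjusted p = 0.0261 by limma), Bdh1 (0.56) and Decr2 (0.30). The counts turned on OT1. Without it the standard error of Cpt1a in OC mice was 0.192 in place of 0.268, 16 members were called in OC mice (14 lower in the uterus, 2 higher) and 12 in OT mice (11 lower, 1 higher). Over all genes, that fit called 23.8% lower and 22.7% higher in OC mice, and 21.6% lower and 22.1% higher in OT mice. Without OC1, OC2, OC3 or OT2 the count in OC mice was 1, 2, 1 and 3, all lower, against 11.9%, 13.4%, 11.2% and 18.1% of all genes called lower. Without OT3 or OT4 the count in OT mice was 3, against 32% and 34.6% of all genes. With each library scaled to the same total, 9 members were called in OC mice, all lower in the uterus, and 9 in OT mice, where 1 was higher and 8 lower in place of 4 and 2 (10.9% and 40.1% of all genes). That scaling put the median log2 difference of all genes at -0.173 in OC and -0.316 in OT mice, and the median of the members at -0.422 and -0.175. These fits share the estimate of the spread. The differences in OC mice use no OT library, so leaving out OT1 could change only their standard errors. In OT mice, Cpt1a (-1.51) and Acaa2 (-1.05) stayed lower in the uterus without OT1. Of the 4 members higher in the uterus of OT mice, Pdk4 still passed without OT1 (1.20, adjusted p = 0.00417 by limma). Ehhadh (0.48, adjusted p = 0.0662), Bdh1 (0.42, adjusted p = 0.139) and Decr2 (0.24, adjusted p = 0.117) did not (limma).

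In the ovary, no member passed a fold of 2 with an unadjusted p of at most 0.05 (limma on log2(FPKM + 0.1)), against 0.451% of 14415 genes, 2 passed the p alone, against 4.51% of all genes, and no member reached an adjusted p under 0.05, as did 0% of all genes. The fold change was above 0 for 20 members, against 46.6% of all genes. The log2 fold change ran from -0.34 for Pdk4 to 0.80 for Acaa1b, with a median of 0.037, against -0.011 over all genes. Acaa1b was near the floor, at 0.1007 to 0.5233 FPKM in OC and 0.2448 to 1.138 FPKM in OT ovaries. Without OT1, its highest ovary, it fell below the filter and was not tested. For 3 members the OT ovaries all lay above the OC ovaries, which 2.78% of all genes did. They were Crat, the carnitine acetyltransferase, Acads, the short-chain acyl-CoA dehydrogenase, and Acaa1a, the main peroxisomal thiolase. The number above was 5 without OC3 and 5 without OT3, against 5.52% and 5.65% of all genes on the same omission. Without OC1 it was 3, with 2 more members whose OT ovaries all lay below, against 5.76% above and 6.67% below. No member was called in the ovary on leaving out any single library.

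Crat stood at 16.49, 12.8 and 15.24 FPKM in OC1 to OC3 ovaries and at 21.54, 21.99, 17.18 and 18.48 FPKM in OT1 to OT4. The lowest OT ovary, OT3, lay just above the highest OC ovary. Its log2 fold change was 0.41 (SE 0.12, unadjusted p = 0.00813 and adjusted p = 0.997 by limma). Acads stood at 29.27, 28.3 and 26.31 FPKM against 32.94, 40.52, 31.16 and 33.28 FPKM, a log2 fold change of 0.30 (SE 0.096, unadjusted p = 0.0143 and adjusted p = 0.997 by limma). OT2 was the highest ovary for both.

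Members that stand for the other roles overlapped between the groups. Cpt1a was at 77.83, 81.71, 74.43 and 73.63 FPKM in the OT ovaries, within the OC range. Acadm, the medium-chain acyl-CoA dehydrogenase, had a mean of 57.46 ± 5.313 FPKM (SD, n = 3) in OC and 56.04 ± 5.596 FPKM (SD, n = 4) in OT ovaries. Hadha went from 56.36 ± 3.634 FPKM (SD, n = 3) to 52.55 ± 2.485 FPKM (SD, n = 4), and Etfdh, the oxidoreductase that passes electrons from the flavoprotein to ubiquinone, from 32.45 ± 1.119 to 31.76 ± 2.001 FPKM. Ppara, the nuclear receptor that drives these genes in liver, had 2.701 ± 0.9122 FPKM in OC and 3.05 ± 0.8275 FPKM in OT ovaries. Pdk4 was at 7.257, 5.334 and 6.487 FPKM in OC and at 5.494, 4.172, 4.828 and 5.445 FPKM in OT ovaries, a log2 fold change of -0.34 (SE 0.151, limma, adjusted p = 0.997). The OC2 ovary lay inside the OT range. Bdh1, which interconverts the ketone bodies acetoacetate and 3-hydroxybutyrate, moved by -0.11, Cpt1b by 0.25 and Ehhadh by 0.35 on the log2 scale, each by under 2 standard errors. Acot1, a cytosolic acyl-CoA thioesterase, moved by -0.31 (SE 0.158).

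**Figure D2:**
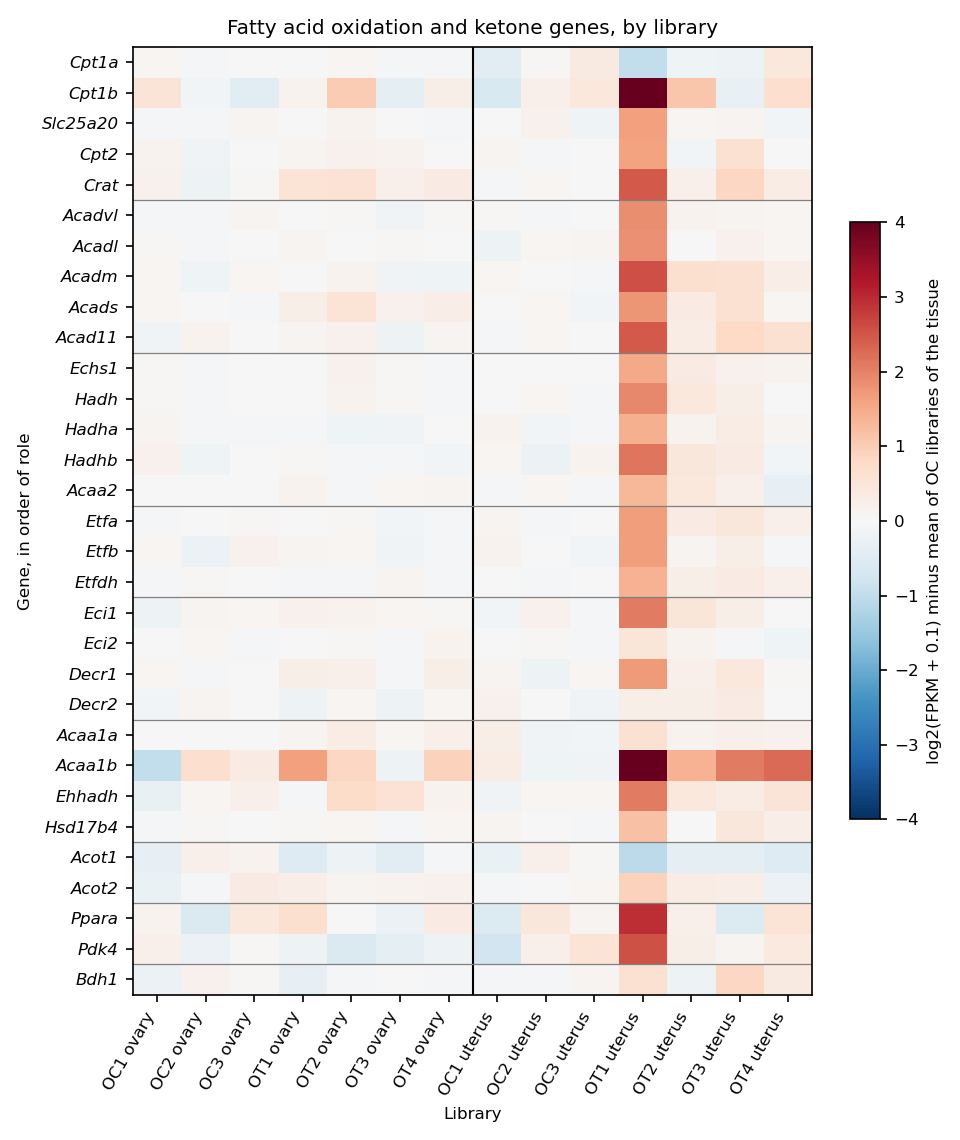
Difference of log2(FPKM + 0.1) from the mean of the OC libraries of the same organ, for the 31 genes in rows, ordered by role and parted by lines, and the 14 libraries in columns, with colors stopping at 4. The OT1 uterus column is above the OC mean for 29 of 31 genes, while the ovary columns stay pale.

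In the uterus the members lay higher in the OT group, most of all in OT1. Of the 31, 29 had a log2 fold change above 0, against 51.1% of the 14151 genes tested, and the median was 0.541 against 0.01. Only Acaa1b met the fold of 2 and the p limit, as a higher gene, against 2.23% of all genes called higher and 0.664% called lower, and no member had an adjusted p under 0.05, as did 0% of all genes (limma, smallest 0.55 among the members). At the p alone 2 members passed, Acaa1b and Acot1, against 8.2% of all genes. The OT uteruses all lay above the OC uteruses for 10 members, which 6.46% of all genes did, and all below for 1, Acot1, which 5.48% did. Without OT4 the first number was 17, against 12.6% of all genes. The call turned on single libraries: no member was called without OC2, OC3 or OT1, and 2 were called without OT2 and 2 without OT4, against 2.56% and 2.94% of all genes called higher.

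The OT1 uterus was the highest of the 7 uteruses for 27 of 31 members, against 31% of all genes, and was at least 2 times the next library for 22, against 3.61%. Relative to the OC mean, the median difference over the members was 1.679 on the log2 scale in OT1, against 0.224 in OT2, 0.261 in OT3 and 0.099 in OT4, while the median of all genes was at 0.002 to 0.027 in OT1 to OT3 and at -0.006 in OT4. OT1 was not highest for Cpt1a, Acot1, Decr2 and Bdh1. Summed over the 31 genes, OT1 held 2145 FPKM, and the 3 other OT uteruses held at least 732.8 FPKM. The total over all genes was also highest in OT1, at 577494 FPKM. The other uteruses held from 425875 FPKM in OT4 to 471907 FPKM in OT2. The values and counts of OT1 given here are not scaled to that total.

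By role, the carnitine shuttle split. Cpt1b was at 25.82 FPKM in the OT1 uterus and at 0.7791, 1.442 and 1.678 FPKM in OC1 to OC3, and stood at 2.784, 0.9879 and 2.04 FPKM in OT2 to OT4. The other OT uteruses thus overlapped with OC, and the log2 fold change was 1.44 with SE 0.964 (adjusted p = 0.635, limma). Cpt1a, the form of most tissues, went the other way in OT1, which was the lowest uterus at 13.28 FPKM, against 23.57, 23.07 and 35.41 FPKM in OT2 to OT4 and 19.79 to 34.01 FPKM in the OC group (log2 fold change -0.24, SE 0.325, adjusted p = 0.794 by limma). Crat was at 76.17, 15.88, 24.48 and 16.94 FPKM in OT1 to OT4 and at 13.21, 14.53 and 13.55 FPKM in OC1 to OC3, so that the groups did not overlap (0.95, SE 0.499, adjusted p = 0.623 by limma). Slc25a20 and Cpt2, the inner-membrane carnitine palmitoyltransferase, stood highest in OT1, at 51.03 and 66.83 FPKM, at least 2 times every other uterus.

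All 5 acyl-CoA dehydrogenases had a log2 fold change above 0, against 51.1% of all genes. Their median was 0.698, and 0.346 without OT1. In 4 of the 5 the OT uteruses all lay above the OC uteruses, against 6.46% of all genes. Acadm was at 177.3, 46.14, 45.41 and 35.59 FPKM in OT1 to OT4, and at 30.86, 29.24 and 28.34 FPKM in OC1 to OC3. OT1 was far above the rest, and OT4, the lowest OT uterus, still above every OC uterus. Its log2 fold change was 1.03 (SE 0.5, unadjusted p = 0.0729 and adjusted p = 0.614 by limma). Acads was at 55.13, 20.61, 25.05 and 17.31 FPKM against 16.51, 17.23 and 15.22 FPKM, where OT4 lay within 0.1 FPKM of OC2. The gap between the groups was narrow there (0.70, SE 0.36, adjusted p = 0.623 by limma). Acadvl and Acadl, which take the very long and long chains, reached 130.7 and 123.8 FPKM in OT1 and at most 39.92 and 39.01 FPKM elsewhere in the uterus.

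In the mitochondrial steps after the dehydrogenases OT1 was again the highest uterus, but only for Echs1 of these 5 members did the groups not overlap. Hadha was at 92.11, 37.49, 42.38 and 36.75 FPKM in OT1 to OT4, and at 37.91, 32.11 and 33.17 FPKM in OC1 to OC3. OC1 lay inside the OT range, and the log2 fold change was 0.49 (SE 0.314, adjusted p = 0.629 by limma). Its head-to-head partner Hadhb reached 164.2 FPKM in OT1 and at most 50.85 FPKM elsewhere, Hadh 131.8 against at most 46.73 FPKM, and Echs1 112.3 against at most 48.63 FPKM. For the thiolase Acaa2, OT1 was at 113.7 FPKM and OT4, at 36.35 FPKM, lay below every OC uterus (43.61 to 48.01 FPKM). For Etfdh the 4 OT uteruses held 63.07, 28.21, 30.29 and 27.74 FPKM, and the OC uteruses 24.54, 23.25 and 24.49 FPKM, without overlap (0.54, SE 0.284, adjusted p = 0.623 by limma). Etfa and Etfb, the flavoprotein subunits, were at 96.88 and 158.9 FPKM in OT1. Among the auxiliary enzymes of unsaturated chains, Eci1 and Decr1 reached 78.22 and 57.32 FPKM in OT1, and Eci2 46.48 FPKM, only 1.278 times the next uterus, while Decr2, a peroxisomal reductase, was highest in OT3 at 22.12 FPKM.

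The peroxisomal enzymes held the member called. Acaa1b was at 14.11, 0.5047, 0.877 and 1.02 FPKM in OT1 to OT4 and at 0.1833, 0.1067 and 0.1123 FPKM in OC1 to OC3. All 4 OT uteruses lay above the OC uteruses, but 6 of the 7 values were near or below 1 FPKM. Its log2 fold change was 2.92 (SE 1.022, unadjusted p = 0.0211 and adjusted p = 0.55 by limma). The call was lost without OC2 (2.84) or OC3 (2.86) at an unadjusted p of 0.0534 and 0.0515 (adjusted p = 0.923 and 0.895, limma), and without OT1 its mean fell below 0.5 FPKM, so it was not tested. Acaa1b shares 35.5% of its 50-base stretches with Acaa1a, which was at 44.86 FPKM in OT1, so reads of the 2 genes may be split between them. Ehhadh was at 13.86, 4.305, 3.961 and 4.597 FPKM in OT1 to OT4 and at 2.913, 3.354 and 3.364 FPKM in OC1 to OC3, again without overlap (0.83, SE 0.42, adjusted p = 0.618 by limma).

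The thioesterase Acot1 and Cpt1a were the members with a log2 fold change below 0. Acot1 stood at 12.37, 19.46, 19.66 and 17.91 FPKM in OT1 to OT4 and at 21.41, 29.17 and 26.61 FPKM in OC1 to OC3, with every OT uterus below every OC uterus. The log2 fold change was -0.58 (SE 0.2, unadjusted p = 0.0199 and adjusted p = 0.55 by limma), under a fold of 2. Acot2, its mitochondrial relative, was at 16.82 FPKM in OT1 and at most 10.75 FPKM elsewhere. Acot1 shares 23.5% of its 50-base stretches with Acot2, so the split between them is uncertain.

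Both regulators were high in OT1 alone. Ppara was at 7.712, 1.059, 0.5803 and 1.366 FPKM in OT1 to OT4 and at 0.5773, 1.27 and 0.9726 FPKM in OC1 to OC3 (0.80, SE 0.776, adjusted p = 0.713 by limma). Pdk4 was at 55.06, 11.08, 10.03 and 12.42 FPKM against 5.486, 10.83 and 13.78 FPKM (0.82, SE 0.608, adjusted p = 0.664 by limma). Outside OT1 the groups overlapped for both. Bdh1 was the only ketone body gene among the members and was highest in OT3, at 7.978, 4.572, 9.359 and 6.721 FPKM in OT1 to OT4 and 5.014, 4.983 and 5.695 FPKM in OC1 to OC3 (0.40, SE 0.245, adjusted p = 0.627 by limma). OT2 lay below every OC uterus.

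**Figure D3:**
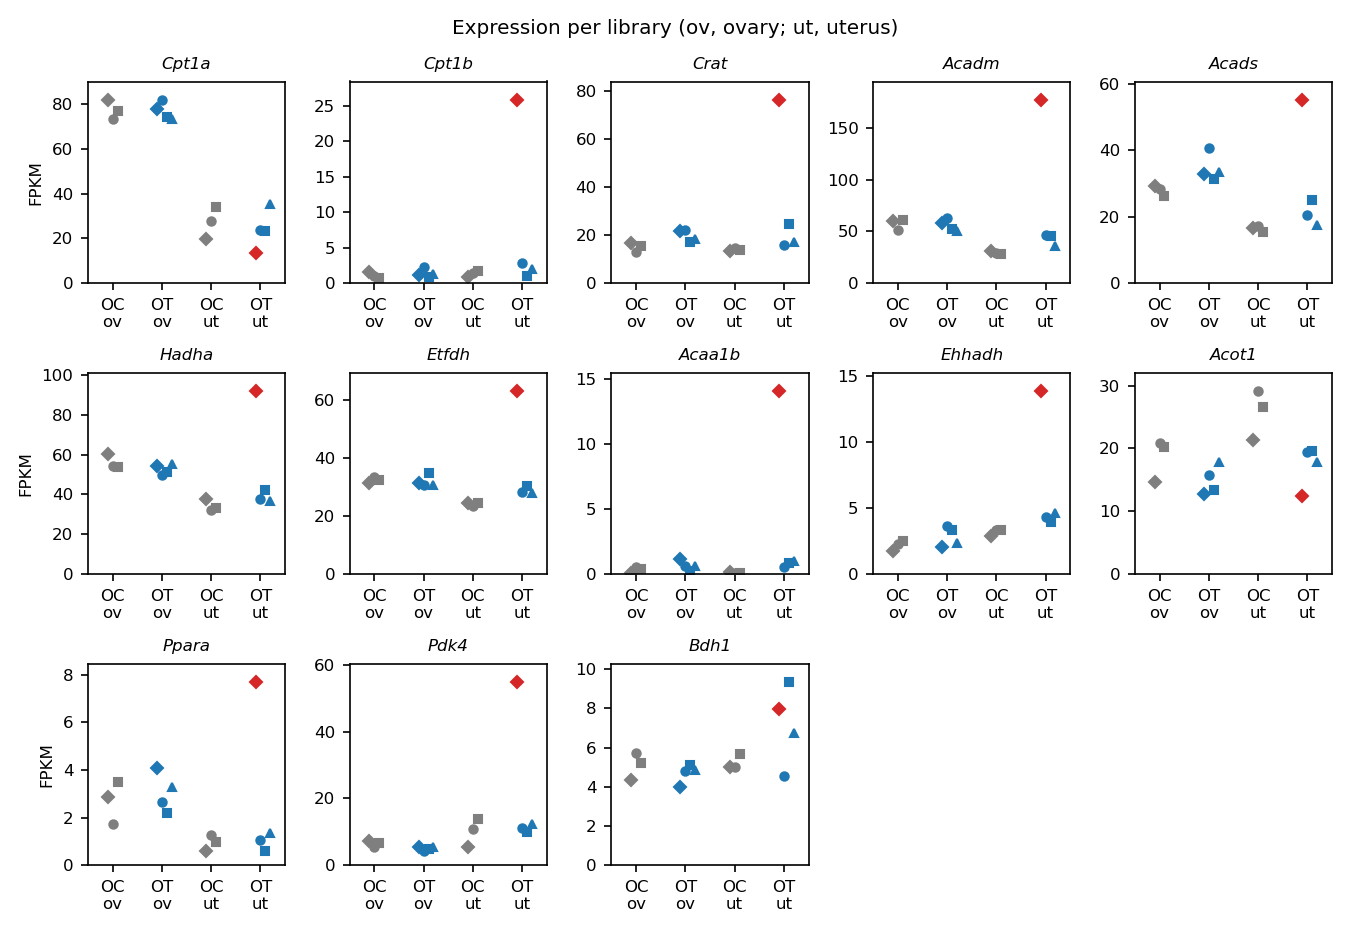
FPKM per library for 13 members in OC and OT ovaries (ov) and uteruses (ut), with gray for OC, blue for OT, red for the OT1 uterus, and a diamond, circle, square and triangle for replicates 1 to 4. The OT1 uterus is the highest point of the uterus except for Cpt1a, Acot1 and Bdh1, where it is at 13.28, 12.37 and 7.978 FPKM.

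Without the OT1 uterus, no member was called, and the median log2 fold change was 0.213, against 0.013 over all genes. Of the 30 members then tested, 6 were higher at an unadjusted p of at most 0.05, against 5.98% of all genes, and 1 was lower, against 3.59%. Acadm had a log2 fold change of 0.51 (SE 0.125, unadjusted p = 0.00421 and adjusted p = 0.3 by limma), and Acad11, a long-chain acyl-CoA dehydrogenase, of 0.56 (SE 0.154, adjusted p = 0.36 by limma). Crat (0.44), Ehhadh (0.41), Etfa (0.33) and Etfdh (0.25) were the others, and Acot1 was lower by -0.42 (SE 0.135, adjusted p = 0.407 by limma). The other members described above did not pass the p. Cpt1b was at 0.49 (SE 0.449), Acads at 0.35 (SE 0.15), Bdh1 at 0.33 (SE 0.255), Pdk4 at 0.25 (SE 0.317), Hadha at 0.18 (SE 0.11), Acaa2 at 0.10 (SE 0.185), Ppara at 0.072 (SE 0.444), Slc25a20 at 0.024 (SE 0.13) and Cpt1a at 0.016 (SE 0.24). Leaving out a library cannot make separate groups overlap, so the 10 members above and Acot1 below had to stay apart without OT1. No other member joined them, where 8.91% of the 14151 genes lay apart above and 7.26% below.

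**Figure D4:**
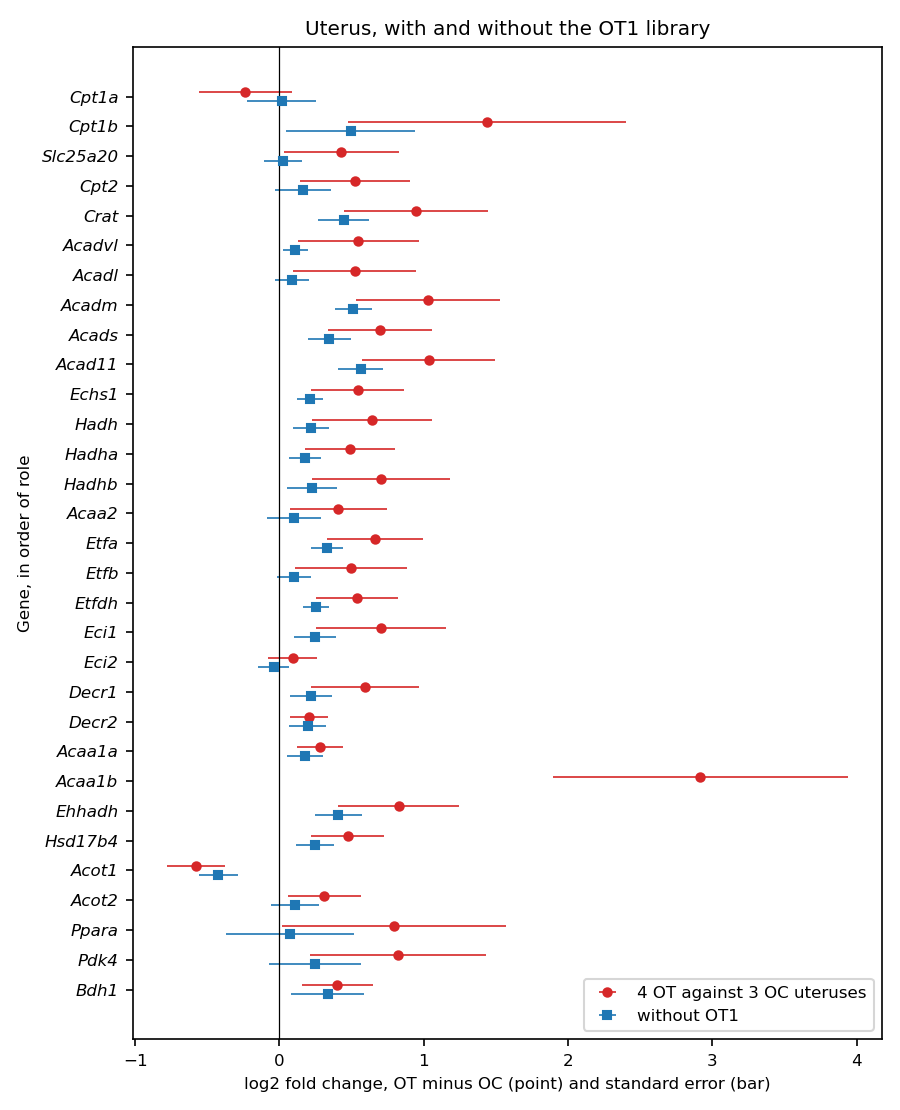
Log2 fold change of OT against OC uteruses for the 31 genes, with all 4 OT uteruses (red circles) and without OT1 (blue squares), with bars for the standard error. The median moves from 0.541 to 0.213, and Acaa1b, at 2.92, has no value without OT1.

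White adipocyte markers, like most members, were highest in OT1 among the uteruses. Of 20 white adipocyte markers, 19 were called higher in the OT uteruses and 12 in the OT ovaries, and OT1 was highest for all 20 in both organs. All but Lipe, Pnpla2 and Pparg stand in the study's list of genes higher in both organs of these same samples. Their calls are therefore no independent support. Their summed level was 237.3 to 539.3 FPKM in the OC uteruses and 2208 to 18400 FPKM in the OT uteruses, with the highest in OT1. In the ovary the sum was 338.2 to 512.6 FPKM in OC and 420 to 2972 FPKM in OT. The sums of the 31 members there were 985.6 to 1039 FPKM in OC and 1004 to 1080 FPKM in OT. The median log2 difference of the members from the OC mean was 0.087 in OT2 and 0.048 in OT1. These are the ovaries with the highest white adipocyte sums, and the other ovaries lay between -0.045 (OC2) and 0.034 (OT4). Adiponectin, encoded by Adipoq, was at 777.3 FPKM in the OT1 uterus, Plin1, the lipid droplet coat, at 370.1 FPKM and Cidec, a lipid droplet fusion factor, at 535.9 FPKM, against at most 251.3, 72.7 and 193.5 FPKM in the other uteruses. The 8 brown adipocyte markers, among them Cidea at 70.46 FPKM, summed to 765.1 FPKM in OT1 and to between 39.8 and 65.1 FPKM in the other uteruses. Cidea was at most 0.5178 FPKM in those. OT1 was the highest uterus for 7 of the 8, and the remaining marker, Dio2, the deiodinase that activates thyroid hormone, was the only brown marker called, as lower (-1.17, SE 0.333, adjusted p = 0.503 by limma), at 13.07 FPKM in OT1 and 28.58 to 39.48 FPKM in the OC uteruses. Of 9 stratified epithelium markers tested, 8 were called higher in the OT uteruses. Their sum was 3.1 to 14.7 FPKM in the OC uteruses and 231.4, 49.36, 942.7 and 437.1 FPKM in OT1 to OT4, with Krt5 at 37.11 FPKM in OT1 and 299.2 FPKM in OT3, while Sprr1a, a cornified envelope gene, was highest in OT1 at 139.2 FPKM. The 6 uterus markers summed to 377 to 451.3 FPKM in OC and to 205.8, 286.5, 314.3 and 320 FPKM in OT1 to OT4, lowest in OT1. None of them was called, and for 3 of the 6 all OT uteruses lay below OC. The skeletal muscle markers were not called, with Ckm at 4.685 FPKM and Acta1 at 131 FPKM in OT1, against up to 5.213 and 138.6 FPKM in OT3. With the mean log2 level of the white adipocyte markers as a covariate, the median of the members in the uterus was -0.909 in place of 0.541. With the covariate 9 members were called lower, against 1.58% of all genes. For 19 of the 20 markers every OT uterus lay above every OC uterus. The covariate thus goes with the treatment, and this fit cannot part the 2. The part of the adipocyte, epithelial and uterus markers in the result was not tested, and in whole organs more cells of a type cannot be told apart from more RNA per cell.

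**Figure D5:**
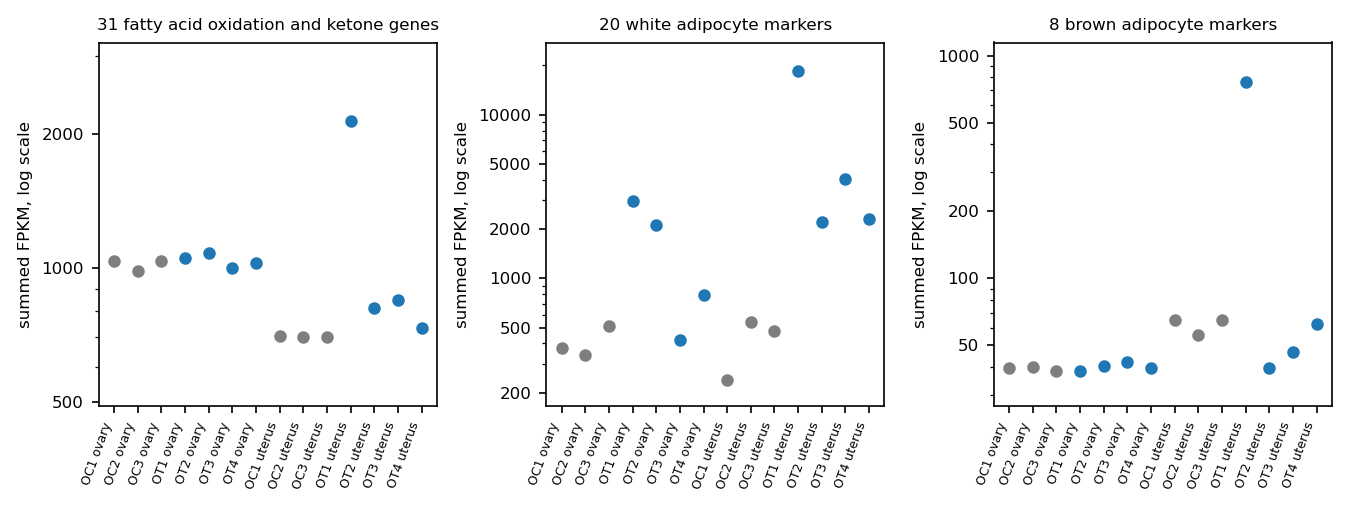
Summed FPKM per library, on a log scale, of the 31 genes, of 20 white adipocyte markers and of 8 brown adipocyte markers, with OC in gray and OT in blue. All 3 sums are highest in the OT1 uterus, at 2145, 18400 and 765.1 FPKM.

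The difference between the organs in the effect of AMSC-CM was not established for any member. In the fit of 14 libraries, 29 of 31 members had a larger log2 fold change in the uterus than in the ovary, against 52.1% of 14557 genes, yet none passed at an unadjusted p of at most 0.05, against 5.12% of all genes, or at an adjusted p under 0.05, against 0%, and the smallest adjusted p of a member was 0.844 (limma). Acadm differed by 1.07 (SE 0.556) and Acaa1b by 2.12 (SE 1.232). For Hadha, all 4 OT ovaries lay below the OC mean of 56.36 FPKM and all 4 OT uteruses above the OC mean of 34.39 FPKM, and the difference was 0.59 (SE 0.344, adjusted p = 0.844 by limma). That difference was 0.29 without OT1. Without OT1 in both organs, 5 of the 30 members tested passed the unadjusted p of 0.05, against 5.29% of all genes. They were Acadm (0.57), Acad11 (0.54), Etfa (0.38), Hadha and Etfdh (0.28), all with the larger change in the uterus, and the smallest adjusted p was 0.737 (limma).

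Of 68 other genes of these pathways, 64 were tested in the uterus and 9 were called, all higher, against 2.23% of all genes. In the ovary 2 of 63 were called, both higher, against 0.368%. The OT ovaries all lay above OC for 4 of the 68 and all below for 4, against 2.78% and 3.13% of all genes. Angptl4 was among those below, at 43.91 to 48.94 FPKM in OC and 27.37 to 32.25 FPKM in OT ovaries, and was not called. Fatty acid uptake and activation held 3 of the 9. Acsl1, a long-chain acyl-CoA synthetase, was at 270.4, 27.62, 59.55 and 40.85 FPKM in the OT1 to OT4 uteruses and at 5.291, 7.963 and 5.678 FPKM in OC (log2 fold change 3.37, SE 0.688, adjusted p = 0.357 by limma). Cd36, a fatty acid transporter, rose by 2.28 in the uterus and 1.31 in the ovary, and Slc27a1, another transporter, by 1.62 in the uterus. Cd36 and Pparg also stand in the white adipocyte list.

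Among the other peroxisomal genes, Abcd2, a transporter of very long-chain acyl-CoA, rose in both organs (log2 fold change 1.01 for ovaries and 3.08 for uteruses), and Eci3, an isomerase, was called in the uterus (1.93) and had 0.82 in the ovary. Eci3 was near the floor, at 0.5437, 0.2199 and 0.5806 FPKM in OC1 to OC3 uteruses. It was at 7.624, 1.036, 1.663 and 0.8781 FPKM in OT1 to OT4 uteruses. Of the ketone body genes, 1 of 9 tested was called in the uterus, Aacs, which activates acetoacetate for lipid synthesis (1.41, SE 0.602, adjusted p = 0.599 by limma). Among the regulators, Ucp3, a mitochondrial carrier of muscle and brown fat, rose by 3.75, Pparg, the adipocyte member of the PPAR family, by 2.40 and Ppargc1b, a coactivator of mitochondrial genes, by 1.02 in the uterus. Ucp3 was at 0, 0.1841 and 0.06395 FPKM in OC1 to OC3 and at 10.69, 1.04, 1.246 and 1.419 FPKM in OT1 to OT4. It thus entered the test through the OT values, and its fold change depends on the pseudocount of 0.1. None of the 14 other mitochondrial genes was called in either organ, and in the uterus their median log2 fold change was 0.3. Without OT1, 7 of the pathway genes were called in the uterus, against 1.72% of all genes called higher, and none in the ovary. Acsl1 was then at 2.69, Abcd2 at 2.57, Cd36 at 1.78, Pparg at 1.77, Slc27a1 at 1.07, Ucp3 at 2.99 and Eci3 at 1.27. The calls of Aacs (0.82) and Ppargc1b (0.75) were lost. In the ovary 1 gene was called without OC2 and 1 without OT2, against 0.444% and 0.25% of all genes called higher, and 3 without OT3, against 0.722%.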

How the data were processed

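The 14 libraries, 1 ovary and 1 uterus from each of 3 OC and 4 OT mice, were grouped by their labels. The authors mapped trimmed reads of rRNA-depleted, stranded libraries to mm10 with STAR 2.5 and estimated expression with Cufflinks 2.2.1, and the deposited values are FPKM for 21853 genes. All identifiers matched GENCODE M21. FPKM hides the depth, so no counting interval is given.

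Per organ, genes averaging 0.5 FPKM or more entered limma 3.58.1 (R 4.3.3, trended eBayes) as log2(FPKM + 0.1), which understates the change of low genes. Calls needed a fold of 2 or more together with an unadjusted p of 0.05 or less, as in the study. Contrasts between organs used all 14 libraries and a Benjamini-Hochberg adjusted p under 0.05. All p-values were adjusted over all genes tested. The script was tested on simulated data. Other steps used Python 3.11.15, numpy 2.4.6, pandas 2.3.3 and matplotlib 3.10.9.

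The members and lists were chosen with earlier results of these data known. All white adipocyte markers but Lipe, Pnpla2 and Pparg stand in the study's own list from these samples, as does the pathway gene Abcd2. Cd36, in both lists here, stands there too. Full values were given for members called, for members within that p limit whose groups did not overlap, and for Cpt1a, Cpt1b, Acadm, Hadha, Etfdh, Ehhadh, Ppara, Pdk4 and Bdh1. For the contrast between organs these were the 3 members that differed most in each direction, and for other pathway genes up to 3 called per list. Alternatives were other pseudocounts, filters and scalings, the replicate block, a single fit, an adipocyte covariate and leaving out each replicate.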

Additional observations from a re-analysis of the deposited data

Results flagged for a closer look

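Within the 4 OT uteruses, OT1 lay far from the other 3 for 21 of the 31 members, by the gap to its nearest neighbor divided by the range of the group, past the 95% limit of Dixon's test for 4 libraries. Among 62 groups tested, no other library was singled out. Chance gives about 1 in 20 for a single group. The members were measured in the same 4 libraries, so the 21 flags are not independent and cannot be counted against that rate. In the carnitine shuttle, the ratio was 0.928 for Cpt1b, 0.926 for Slc25a20 and 0.857 for Crat. For the acyl-CoA dehydrogenases it was 0.977 for Acadvl, 0.952 for Acadl, 0.926 for Acadm and 0.874 for Acad11. For the later mitochondrial steps it was 0.914 for Echs1, 0.881 for Hadh, 0.898 for Hadha and 0.873 for Hadhb, and for the electron transfer genes 0.885 for Etfa, 0.899 for Etfb and 0.928 for Etfdh. The auxiliary enzymes Eci1 and Decr1 had 0.878 and 0.858, and the peroxisomal Acaa1a, Acaa1b and Ehhadh had 0.869, 0.962 and 0.936. The regulators Ppara and Pdk4 had 0.89 and 0.947. In each case OT1 was the high value. Ucp1 and the white adipocyte markers were also highest in this library, and their part in these values was not tested.

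Hadha lay below the OC mean in all 4 OT ovaries and above it in all 4 OT uteruses, although the groups overlapped in both organs and neither change passed. The difference between the organs was 0.588 on the log2 scale, with an adjusted p of 0.844 by limma, and 0.291 without OT1.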

How the results depend on the processing

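No member had an adjusted p under 0.05 between OT and OC under any alternative run. The count of members called in the uterus, 1 as reported, was 0 with a pseudocount of 1, 3 with the replicate block and OT4 left out, 3 with all 14 libraries in a single fit and 9 with the adipocyte covariate, all 9 of them lower. Over all genes these fits called 1.83%, 4.7%, 3.57% and 5.08%, against 2.9% as reported. Leaving out each replicate gave 0 to 2 members and 2.09% to 4.27% of all genes. With the covariate, the log2 fold changes turned to -1.155 (SE 1.24) for Acaa1b, -1.33 (SE 0.377) for Crat and -1.831 (SE 0.575) for Pdk4. The covariate rises with the treatment, so that fit cannot part the 2. Scaling each library to the same total put the uterus median of the members at 0.401. The uterus median of all genes was then -0.13, in place of 0.01. That scaling gave 9 members called between the organs in OC mice. In OT mice it gave 9, where 1 was higher and 8 lower in the uterus, in place of 4 and 2. Leaving out each replicate moved these counts between 1 and 16 in OC mice and between 3 and 12 in OT mice. Of the other pathway genes, 1 was called in the ovary with a pseudocount of 1, 1 with all libraries in a single fit, 0 with the covariate, and 0 to 3 on leaving out each replicate. Members without overlap, a count added after seeing the data, numbered 3 to 6 in the ovary and 11 to 18 in the uterus on leaving out each replicate, when the share of all genes was also higher. Same-numbered OC and OT mice are different animals, and their deviations correlated at 0.335, 0.022 and 0.103 for ovaries, and at 0.076, 0.012 and -0.011 for uteruses. The 0.335 of the OC1 and OT1 ovaries was the highest among all OC and OT pairs. Whether a number marks a shared batch is not known. With the mouse as a block, the contrasts between organs gave 5 members in OC and 6 in OT mice, the counts reported. FPKM without counts leaves the precision of low genes such as Acaa1b unknown.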
